A study of Sus scrofa with 2 samples.

Results

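Differentiating myocytes, the cells of a muscle that carry the fusion regulator MYMK or the differentiation factor MYOG, were picked out of single-cell RNA profiles of pig muscle. A cell barcode was a member when it had at least 500 genes detected and at least 2 raw UMIs (unique molecular identifiers, each standing for 1 captured transcript) of MYMK and MYOG together. It also needed fewer than 20 UMIs per 10000 of the stromal genes DCN and LUM and fewer than 3 UMIs of the mitotic genes TOP2A, CENPF and UBE2C. This left 107 of 26981 barcodes, 85 in the library of the Yorkshire breed and 22 in that of the Guangdong small-eared spotted pig, GDSS. They were set against 5726 comparison cells, 591 in GDSS and 5135 in Yorkshire, with at least 2 UMIs of PAX7, MYF5 and TAGLN3 together, none of MYMK or MYOG, and the same limits on genes, stromal and mitotic UMIs.

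Skeletal muscle is built by progenitors, the satellite cells marked by PAX7 and MYF5, that leave their resting or dividing state, switch on MYOD1 and then MYOG, and become post-mitotic myocytes. Myocytes fuse with each other or with existing fibres, a step that needs the membrane proteins MYMK (myomaker) and MYMX (myomixer). They assemble sarcomeres from thin filaments of actin, tropomyosin and troponin, thick filaments of myosin, and the Z-discs that anchor them, and early in this programme use cardiac and slow isoforms that mature fast fibres largely replace.

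The cells came from the longissimus dorsi, the long back muscle, of piglets of both breeds, and were labelled intramuscular vascular stem cells, a name for the vascular and stromal fraction of the tissue. From 1 g of muscle per piglet, red cells were lysed and dead cells depleted on magnetic beads before 10x Genomics v2 libraries were sequenced on a NextSeq-500. Each breed had 1 library, no treatment or genetic change is given for either, and how many piglets it held, their sex and what P0 in the titles means are not given in the sources used here. Breed, animal, dissection and library can therefore not be told apart, no test between breeds exists, and every interval below is a 95% interval that covers counting error only.

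The 12286 GDSS barcodes held 42093851 UMIs in all, the 14695 Yorkshire barcodes had 54300953, and the libraries differed in their make-up. Stromal barcodes numbered 8686 in GDSS and 2285 in Yorkshire. These had at least 500 genes, stood at or above the stromal limit, and had no MYMK, MYOG, PAX7, MYF5 or TAGLN3 UMI. The libraries shared 47 barcode sequences, none of them a member and 19 of them comparison cells in either library. Members held 102826 UMIs in GDSS and 538862 in Yorkshire. A member had a median of 4359 UMIs (1105 to 10209) in GDSS and 5955 (1068 to 16657) in Yorkshire, against comparison medians of 2389 and 3062, so members were the deeper cells in both libraries. The median mitochondrial share of a member was 6.66% in GDSS and 5.36% in Yorkshire.

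Members made up 0.191% of GDSS barcodes with at least 500 genes (Clopper-Pearson interval 0.120 to 0.289) and 0.594% of Yorkshire ones (0.475 to 0.734). Among members and comparison cells together, they made up 3.59% (2.26 to 5.38) in GDSS and 1.63% (1.30 to 2.01) in Yorkshire. Which breed had the larger share thus depended on the denominator, that is, on how many stromal barcodes and comparison cells each library held. The stromal limit removed 7 GDSS and 2 Yorkshire barcodes with at least 2 UMIs of the regulators, and the mitotic limit removed none. Just inside the threshold, 6 GDSS and 11 Yorkshire members had exactly 2 regulator UMIs, and just outside it 8 and 47 barcodes that met the other limits had 1.

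MYMK and MYOG are what the rule used, and their values are a description. The median member had 5.5 UMIs of both together in GDSS (2 to 20) and 8 in Yorkshire (2 to 27). MYMK UMIs outnumbered those of MYOG, at 123 to 29 in GDSS and 534 to 173 in Yorkshire. Both genes were found in 15 of 22 GDSS and 67 of 85 Yorkshire members, MYMK without MYOG in 6 and 15, and MYOG without MYMK in 1 and 3. Most members thus carried transcripts of both regulators, and few were chosen on MYOG alone. Of the progenitor genes that defined the comparison cells, PAX7, MYF5 or TAGLN3 had a UMI in 5 GDSS and 28 Yorkshire members. MYOD1, the factor upstream of MYOG and not part of the rule, had a UMI in 10 GDSS and 44 Yorkshire members. Its level was 156 CPM (a gene's UMIs scaled to the total UMIs of the summed cells) in members against 87.8 in GDSS comparison cells, a ratio of 1.77 (0.989 to 2.97), and 158 against 148 in Yorkshire, so it was not set apart from the comparison cells by counting error in GDSS and was nearly level in Yorkshire.

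The other markers of the cell type, which the rule did not use, were present in members. ACTC1, the cardiac actin that developing skeletal muscle uses, stood at 6137 CPM in GDSS members against 16.3 in comparison cells, 377-fold higher (262 to 564). In Yorkshire it stood at 5235 CPM against 17.7, 296-fold higher (264 to 333). It was found in 19 of 22 and 78 of 85 members. With every cell thinned to 1500 UMIs, 80% of GDSS and 89.2% of Yorkshire members had an ACTC1 UMI. In comparison cells the share was 1.55% and 1.73%, and in endothelial barcodes, which should lack the gene, 2.16% and 1.12%, with unthinned median depths of 4397.5 and 3584 UMIs. The share in comparison cells was thus about that of endothelial barcodes, and the share in members far above it.

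ACTN2, the alpha-actinin of the Z-disc, was at 700 CPM in GDSS members against 6.50 in comparison cells and at 965 against 8.87 in Yorkshire, 108-fold (58.0 to 218) and 109-fold (91.1 to 131) higher. KLHL41, a kelch protein that stabilises nebulin and thin filaments, was at 1303 against 48.3 CPM in GDSS, 27.0-fold higher (20.5 to 35.7). In Yorkshire it was at 1739 against 34.4, 50.6-fold higher (45.7 to 56.1). KLHL41 had a UMI in 19 GDSS and 80 Yorkshire members and ACTN2 in 17 and 74. Both genes were thus spread over most members rather than carried by a few.

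**Figure D1:**
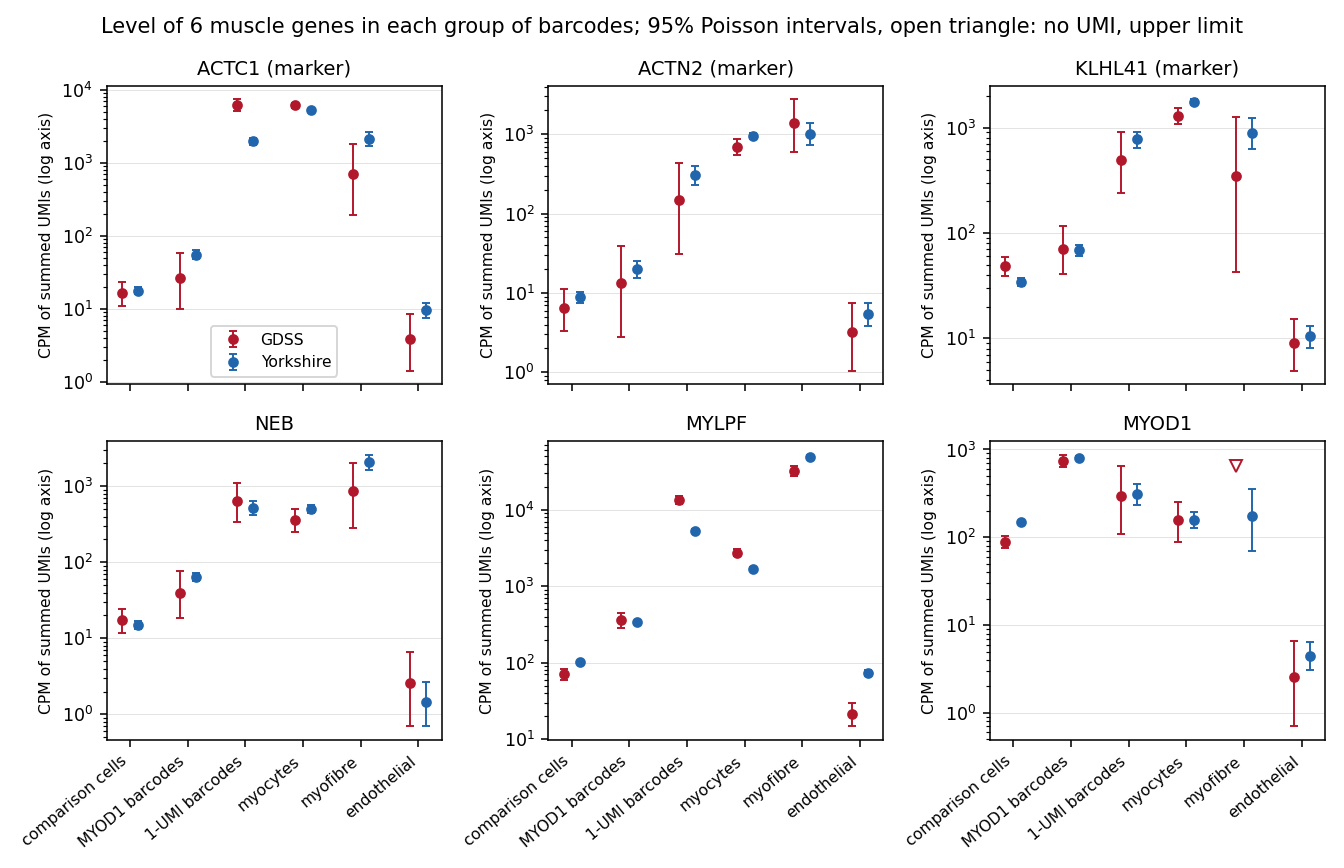
Levels of ACTC1, ACTN2, KLHL41, NEB, MYLPF and MYOD1 in CPM of summed UMIs on a log axis, for each cell group of both libraries, with 95% Poisson intervals of the counts. An open triangle is the upper limit where no UMI was found. ACTC1 stands at 6137 and 5235 CPM in myocytes and at 16.3 and 17.7 in comparison cells. MYLPF is highest in the few myofibre barcodes, which were defined by fast fibre genes that include it.

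Of 6100 genes with at least 20 UMIs over members and comparison cells in each library, 336 (5.51%) were at least 2-fold higher in members of both libraries and 373 (6.11%) at least 2-fold lower. In GDSS alone 12.7% were higher and 18% lower, and in Yorkshire 11% and 12.3%. The median gene was at a log2 ratio of -0.08 in GDSS and 0.04 in Yorkshire. Of all genes past 2-fold in both libraries 47.4% were on the higher side. With TMM factors, which are computed from ratios of trimmed genes, 30.5% were, and with median-of-ratios factors 34.4%, since these lowered the median gene to -0.33 and -0.26 in GDSS and -0.13 and -0.08 in Yorkshire. The counting interval excluded a ratio of 1 in both libraries for 190 of the 373 lower genes and for a larger share of the higher ones. A gene nearly silent in comparison cells could pass the minimum only through its level in members: 184 of the measured genes had fewer than 20 UMIs in the comparison cells of a library, and 48 of those were among the higher genes. The counts for the gene groups below are to be read against the 5.51% and 6.11% of all genes.

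**Figure D2:**
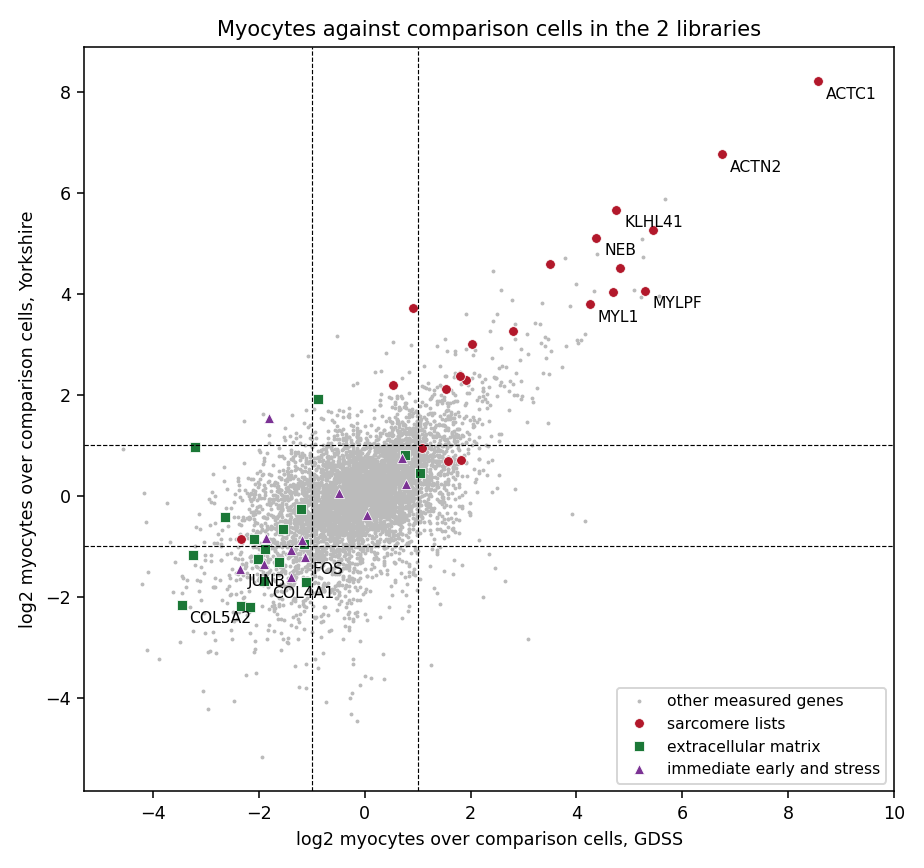
Log2 ratio of members over comparison cells for 6100 genes, GDSS on the x axis and Yorkshire on the y axis, with dashed lines at 2-fold. Sarcomere genes (circles) lie mostly in the upper right, with 336 genes past 2-fold there, and matrix genes (squares) and immediate early genes (triangles) lie mostly in the lower left, with 373.

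The thin filament stood out. Of 11 measured genes 8 were at least 2-fold higher in both libraries, namely ACTC1, KLHL41, ACTA1, TNNT3, TNNI1, TNNI2, TNNC2 and TPM1, and none was lower. The median log2 ratio of the 11 was 2.81 in GDSS and 3.71 in Yorkshire, and 2 of them had fewer than 20 UMIs in the comparison cells of a library. TNNI1, the slow troponin I, was at 214 CPM against 4.88 in GDSS, 43.9-fold higher (19.4 to 108). In Yorkshire it was at 143 against 3.72, 38.4-fold higher (27.4 to 54.0). TNNI2, its fast counterpart, was 28.3-fold higher in GDSS (22.5 to 35.6) and 22.7-fold in Yorkshire (20.2 to 25.4). Slow and fast troponin I were thus both far above the comparison cells.

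Of 8 measured Z-disc and M-band genes 5 were higher in both libraries and none lower, with medians of 1.92 and 2.56 on the log2 scale. Besides ACTN2 these were NEB, PDLIM3, MYOZ1 and FLNC. ACTN2 had 12 UMIs in GDSS comparison cells and so passed the minimum of 20 only with members. NEB, the nebulin that runs along the thin filament, was at 360 CPM against 17.4 in GDSS and 510 against 14.8 in Yorkshire, 20.7-fold (12.6 to 34.4) and 34.4-fold (29.0 to 40.8) higher. PDLIM3, an actinin-binding protein, was 11.4-fold higher in GDSS (6.04 to 20.9) and 24.1-fold in Yorkshire (18.5 to 31.2). MYOZ1, the calsarcin of fast fibres, was 4.08-fold (1.21 to 11.0) and 8.05-fold (5.33 to 11.8) higher, with 5 UMIs in GDSS members.

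For the thick filament 2 genes were measured and both were higher. MYLPF, the fast regulatory light chain, was at 2762 CPM against 70.5 in GDSS, 39.2-fold higher (31.7 to 48.6). In Yorkshire it was at 1674 against 100.5, 16.7-fold higher (15.4 to 18.1). MYL1, a fast alkali light chain, was 19.1-fold (13.3 to 27.5) and 13.9-fold (12.3 to 15.6) higher. These values came from few cells, as described next.

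Members were not alike in their fast fibre genes. The summed UMIs of ACTA1, MYLPF, CKM, TNNT3, TNNC2 and TNNI2 reached at least 100 per 10000 in 5 GDSS members and 8 Yorkshire members, a level chosen after the values were seen. The lowest of them was at 451 in GDSS and 108 in Yorkshire, and the highest of the other members at 35.4 and 91.6. In GDSS there was thus a gap, while in Yorkshire 6 members lay between 50 and 200 and the level divides a continuous range. These few members held 97.9% of the MYLPF UMIs in GDSS and 88.0% in Yorkshire, and 98.5% and 71.5% of those of MYL1. MYLPF is one of the genes whose sum picked these members, so its share is in part set by that choice. MYL1, ACTC1 and KLHL41 were not used to pick them. These members held only 26.2% and 20% of the ACTC1 UMIs and 5.97% and 9.29% of those of KLHL41.

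Without them neither thick filament gene was 2-fold higher in both libraries, and fewer genes of the thin filament and Z-disc were. MYLPF, one of the genes that picked them, was then at a log2 ratio of -0.12 in GDSS and 1.11 in Yorkshire. MYL1, not one of those genes, was at -1.64 and 2.10. Of the thin filament, ACTA1, TNNT3, TNNC2 and TNNI2 were also used to pick them. In the thin filament 4 of 8 measured genes stayed higher in both libraries, and in the Z-disc and M-band 4 of 8. In GDSS MYOZ1, DES and SLN were then at -0.14, -0.17 and -0.03. ACTC1 kept log2 ratios of 8.27 and 8.01, ACTN2 of 6.75 and 6.66, KLHL41 of 4.82 and 5.64, and NEB of 3.32 and 4.60. TNNI1 stayed at 4.95 in Yorkshire but dropped to 1.15 in GDSS, where 1 UMI was left. TNNI2 stayed at 2.08 and 3.12, with 27 UMIs in the other GDSS members and 173 in the other Yorkshire ones. ACTC1, ACTN2, KLHL41, NEB and TNNI2 thus stayed at least 2-fold higher in both libraries without these members, and the light chains MYLPF and MYL1 stayed so in Yorkshire alone.

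Within each library, members rich in fast fibre genes also had more ACTC1, at 16109 CPM against 5033 in the others in GDSS and 13248 against 4549 in Yorkshire. DES, the muscle intermediate filament, followed at 2636 against 86.4 CPM and 2000 against 294. KLHL41 did not follow in GDSS, at 781 against 1361 CPM, and was at 2047 against 1712 in Yorkshire. MYH8, the perinatal myosin, and MYH3, the embryonic myosin, had no UMI in the other members, which allows at most 32.4 CPM in GDSS and 6.04 in Yorkshire. All 162 Yorkshire UMIs of MYH8 came from a single member.

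The same fast fibre signal marked the barcodes just outside the threshold. Of those with 1 regulator UMI, 5 of 8 in GDSS and 21 of 47 in Yorkshire were at or above 100 per 10000, against 7 of 591 and 38 of 5135 comparison cells. Their MYLPF stood at 13323 and 5315 CPM, above that of members, and their KLHL41 at 497 and 773 CPM, below it. Among members, MYLPF was at 9396 CPM in GDSS and 6918 in Yorkshire with 2 regulator UMIs and at 887 and 1323 with 6 or more. KLHL41 went the other way, from 619 and 1345 CPM to 1570 and 1868. Barcodes with 1 or 2 regulator UMIs thus had more MYLPF and less KLHL41 than members with 6 or more. Members with 3 to 5 regulator UMIs lay outside that order in Yorkshire for MYLPF, at 266 CPM. Depth also differed, with median UMIs of 2467 and 2958 in the barcodes with 1 regulator UMI and 6302 and 6563 in members with 6 or more, and its part in this was not tested. Myofibre barcodes, 3 in GDSS and 15 in Yorkshire, had at least 1000 fast fibre UMIs per 10000 and neither regulator. MYLPF, one of the genes that defined them, reached 32624 and 49880 CPM there. Whether fibre fragments or fibre RNA added to the fast fibre genes of some members was not tested.

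**Figure D3:**
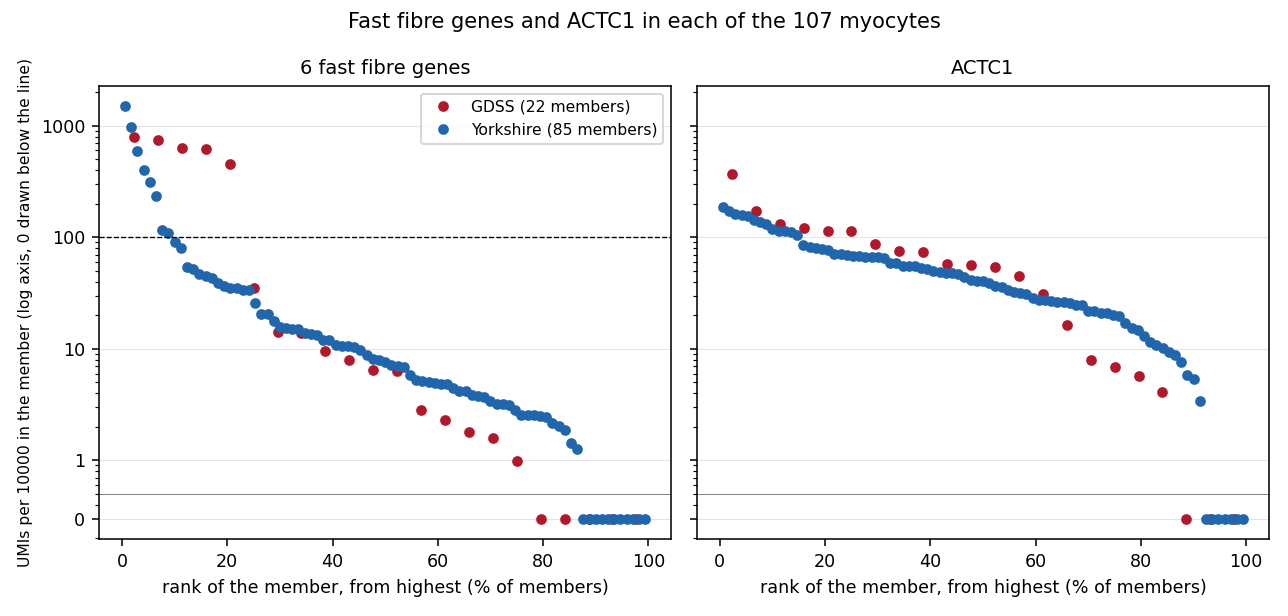
UMIs per 10000 in each member, ranked within each library, for 6 fast fibre genes together (left) and ACTC1 (right), on log axes with members at 0 drawn below the line. The dashed line is at 100 per 10000, which 5 GDSS and 8 Yorkshire members reach for the fast fibre genes, while ACTC1 spreads over nearly all members.

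Of 11 measured regulatory factors 3 were higher in both libraries, MEF2C, HES6 and ZBTB18, and MYF6 was lower. HES6, which counteracts the Notch effector HES1, was 3.26-fold higher in GDSS (1.61 to 6.09) and 3.06-fold in Yorkshire (2.22 to 4.14). ZBTB18, a repressor of ID genes in myoblasts, was 7.34-fold (2.98 to 16.6) and 3.99-fold (2.55 to 6.0) higher. MEF2C, the cofactor of myogenic factors, was 2.99-fold (1.03 to 7.17) and 2.46-fold (1.54 to 3.76) higher, but at a log2 ratio of -0.85 in GDSS without the members rich in fast fibre genes. MYF6, the factor most used in mature fibres, was at 19.5 CPM against 65.6 and at 9.28 against 42.0, 4.52-fold lower in Yorkshire (1.93 to 14.0) and 3.37-fold in GDSS with an interval that held 1 (0.914 to 28.2). The other 7 measured factors passed in neither direction in both libraries. After thinning each cell to 1500 UMIs, 7 factors were measured and 0 were higher in both libraries.

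Of 17 genes listed for cell fusion, beside MYMK, 5 were measured and 3 were higher in both libraries. MYMX was not analysed here. CAV3, the muscle caveolin, was at 263 CPM against 16.3 and 290 against 34.1, 16.2-fold (9.24 to 28.1) and 8.49-fold (7.08 to 10.1) higher. JAM3, an adhesion molecule of fusing myoblasts, was 5.97-fold higher in Yorkshire (4.76 to 7.42) and 2.17-fold in GDSS, with an interval that held 1 (0.901 to 4.54). MEGF10, a receptor of satellite cells that also stands in the progenitor list, was 2.69-fold (1.17 to 5.46) and 4.58-fold (3.64 to 5.71) higher. CDH15, the M-cadherin of satellite cells and myoblasts, was at 38.9 CPM against 66.1 in GDSS and 66.8 against 102 in Yorkshire and did not reach 2-fold.

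Membrane and metabolic genes of the contracting fibre were higher in part. BIN1, which shapes T-tubules, was 7.24-fold (5.37 to 9.67) and 5.38-fold (4.68 to 6.16) higher, and with SLN, the sarcolipin that inhibits the calcium pump, accounted for 2 of 7 measured excitation-contraction genes. CHRNA1, the alpha subunit of the acetylcholine receptor, was 5.13-fold (2.86 to 8.77) and 9.61-fold (7.65 to 12) higher, the only gene of 5 measured at the neuromuscular junction to pass 2-fold in both libraries. Its delta and gamma partners CHRND and CHRNG had no UMI in members, which allows at most 29.2 CPM in GDSS and 5.57 in Yorkshire. Comparison cells had no CHRND UMI either, and 2 CHRNG UMIs in Yorkshire alone, so the absence does not set members apart. In the dystrophin complex DMD, dystrophin itself, was 3.08-fold (1.52 to 5.72) and 3.15-fold (2.56 to 3.84) higher. Its partner DTNA was 5.98-fold (1.70 to 17.3) and 17.0-fold (12.2 to 23.3) higher. DTNA had 5 UMIs in GDSS members and 15 in comparison cells there, so it passed the minimum of 20 only with members. UTRN, the paralogue that precedes dystrophin at the membrane, was 2.84-fold (1.09 to 10.5) and 2.61-fold (1.93 to 3.63) lower. Dystrophin was thus higher and utrophin lower in both libraries, but UTRN had only 4 UMIs in GDSS members, and in that library its log2 ratio was 0.39 after thinning each cell to 1500 UMIs.

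Of 12 measured energy genes 4 were higher in both libraries. CKM, muscle creatine kinase, was at 195 CPM against 36.3 in GDSS and 540 against 24.8 in Yorkshire, 5.36-fold (3.08 to 8.94) and 21.8-fold (18.7 to 25.3) higher. PGAM2, the muscle phosphoglycerate mutase, was 3.48-fold and 5.45-fold higher, FABP3, the fatty acid carrier of muscle, 9.57-fold and 4.37-fold, and COX6A2, a muscle subunit of cytochrome oxidase, 2.76-fold and 3.56-fold. The median of the 12 was 0.47 and 0.17 on the log2 scale, and 1.34 and 0.93 over the 8 genes measured after thinning each cell to 1500 UMIs. COX7A1, another muscle subunit of cytochrome oxidase, was at log2 ratios of -0.78 and -0.87, and ENO3, the muscle enolase, at 0.87 and 2.99. Of the ENO3 UMIs in Yorkshire members 72.0% came from 1 cell. Without the members rich in fast fibre genes, 3 energy genes were higher in both libraries and 1 lower. CKM was then at log2 ratios of 2.34 in GDSS and 3.49 in Yorkshire. Among 8 measured chaperones of sarcomere assembly, CRYAB was at 4697 CPM against 946 and 2888 against 714, 4.97-fold (4.48 to 5.50) and 4.05-fold (3.84 to 4.26) higher. HSPB1 was 3.27-fold and 2.05-fold higher, and with KLHL41 these were the 3 that passed in both libraries. With TMM or median-of-ratios factors 2 passed, and without the members rich in fast fibre genes 2 were higher and 1 lower. Of the HSPB1 UMIs in GDSS members 39.7% came from 1 cell.

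Outside the lists, the genes with the largest ratios in both libraries were of several kinds. S100A1, a calcium sensor of muscle, was at 360 CPM against 7.05 in GDSS and 416 against 7.06 in Yorkshire, 51.1-fold (26.5 to 105) and 58.9-fold (47.2 to 73.7) higher. DBN1, the actin-bundling drebrin, was 38.0-fold (20.8 to 72.1) and 33.9-fold (26.9 to 42.7) higher. RRAD, a small GTPase that restrains calcium channels, was at 2305 CPM against 115 and 1845 against 111, 20.1-fold (16.6 to 24.3) and 16.7-fold (15.5 to 18.0) higher. SERHL2, a hydrolase-like protein, was 38.5-fold and 26.4-fold higher, RAMP1, a receptor activity-modifying protein of the CGRP receptor, 20.9-fold and 27.5-fold, and ART3, of the ADP-ribosyltransferase family, 33.9-fold and 17.0-fold. Each of these 6 genes was at least 16.7-fold higher in both libraries, and they were picked by these same ratios. ART3 had a UMI in only 6 of 22 GDSS and 13 of 85 Yorkshire members. Of its UMIs in members, 35.3% in GDSS and 31.5% in Yorkshire came from 1 cell. In GDSS comparison cells DBN1 had 17 UMIs, ART3 had 9, and S100A1, at 7.05 CPM, had fewer than DBN1. At least these genes passed the minimum of 20 only with members.

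Few cell cycle genes passed 2-fold in both libraries, apart from the mitotic genes the rule limited. Of 13 measured genes of cell cycle exit none was higher in both libraries and GADD45B, a stress-induced growth arrest gene, was lower, 3.59-fold and 2.29-fold. None of the 6 proliferation genes measured under their listed symbols passed 2-fold in both libraries in either direction, and the medians were 0.14 and 0.41. A further gene of that list, the histone variant H2AZ1, stands in the files under its older symbol H2AFZ and was 3.1-fold (2.23 to 4.43) and 4.07-fold (3.58 to 4.64) lower. CDKN1A, the p21 inhibitor induced in differentiating myoblasts, was at 175 CPM against 134 in GDSS and 182 against 184 in Yorkshire. CDKN1C, the p57 inhibitor, was at 1546 against 1072 CPM and 1908 against 830, 1.44-fold (1.22 to 1.70) and 2.30-fold (2.16 to 2.45) higher. Both inhibitors were singled out after their values were seen.

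Many matrix genes were lower in members. Of 18 measured extracellular matrix genes 9 were at least 2-fold lower in both libraries and none higher in both, with medians of -1.89 and -1.0. These were COL3A1, COL4A1, COL4A2, COL5A1, COL5A2, LAMB1, LAMC1, NID1 and VCAN, which include the basement membrane collagens and laminins. COL5A2 was at 19.5 CPM against 215 in GDSS and 74.2 against 333 in Yorkshire, 11.0-fold (3.04 to 91.5) and 4.48-fold (3.29 to 6.28) lower. LAMB1, a laminin chain of the satellite cell niche, was 4.47-fold (1.73 to 16.5) and 4.62-fold (3.21 to 6.91) lower. COL4A1 was 3.75-fold (2.08 to 7.55) and 3.21-fold (2.52 to 4.15) lower. COL1A1 differed between libraries, at 117 against 215 CPM in GDSS and 440 against 116 in Yorkshire, where 63.3% of its UMIs in members came from 1 cell. The summed level of 9 stromal markers, which include some of these collagens and the DCN and LUM that the rule limits, was 720 and 1637 CPM in members, 2412 and 2233 in comparison cells and 47769 and 53391 in stromal barcodes, and PDGFRA was at 0 in members of both libraries. The part of stromal RNA in these differences was not tested.

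Of 12 measured progenitor genes outside the rule 4 were lower in both libraries and MEGF10 was higher. SPRY1, an inhibitor of growth factor signalling that keeps satellite cells quiescent, was at 58.4 CPM against 307 in GDSS and 72.4 against 211 in Yorkshire, 5.26-fold and 2.92-fold lower. The receptor NOTCH3 was 3.55-fold and 2.48-fold lower. CALCR, the calcitonin receptor of quiescent satellite cells, was 7.09-fold lower in Yorkshire (2.76 to 26.1) and 5.69-fold in GDSS, where a single UMI was left in members (0.998 to 227). CD34, a sialomucin of quiescent satellite cells and vessels, was the fourth, with 9.73 CPM against 23.9 and 1.86 against 9.47, but it had 1 UMI in the members of each library and intervals that held 1 in both. The medians of this list, -0.70 and -1.10, moved to 0.15 and -0.25 over the 7 genes measured after thinning each cell to 1500 UMIs, so no direction is given for the list as a whole. Since the comparison cells were chosen by PAX7, MYF5 and TAGLN3, genes that go with those in single cells are favoured there by the rule itself.

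Growth signals and imprinted genes were lower in part. Of 16 measured genes of growth factor pathways 3 were lower in both libraries, IGFBP5 3.94-fold and 2.71-fold, the TGF-beta receptor TGFBR1 2.73-fold and 3.28-fold, and MET, the receptor of hepatocyte growth factor, 3.23-fold and 2.57-fold. In GDSS the intervals of TGFBR1 (0.736 to 22.9) and MET (0.558 to 130) held 1, with 2 UMIs and 1 UMI in members. Of 6 measured imprinted growth genes MEST was at 29.2 CPM against 165 and 57.5 against 156, 5.67-fold and 2.72-fold lower. PEG10, a retrotransposon-derived gene, was 8.08-fold and 2.26-fold lower and the zinc finger factor PLAGL1 2.06-fold and 2.52-fold, and in GDSS each of these had 1 UMI in members, with an interval for PLAGL1 that held 1 (0.348 to 83.6). No measured gene of either list was at least 2-fold higher in both libraries. Of the imprinted list, DLK1 and CDKN1C went the other way, at log2 ratios of 0.76 and 0.53 in GDSS and 0.92 and 1.20 in Yorkshire. After thinning each cell to 1500 UMIs, 2 imprinted genes were measured and 0 were lower in both libraries. In the Notch pathway HES1, an effector that blocks differentiation, was 1.81-fold lower in GDSS (1.28 to 2.64) and 2.40-fold in Yorkshire (1.99 to 2.92), and so did not pass in both. The ligand DLL4 was 3.26-fold and 2.12-fold higher, with intervals that held 1.

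Some immediate early and stress genes, a class that tissue dissociation also induces, were lower in members. Of 12 measured genes 5 were at least 2-fold lower in both libraries and none higher in both, with medians of -1.29 and -0.86. FOS, a subunit of the AP-1 factor, was at 4872 CPM against 10675 in GDSS and 3600 against 8286 in Yorkshire, 2.19-fold (2.01 to 2.40) and 2.30-fold (2.20 to 2.41) lower. Its relative FOSB was 3.75-fold and 2.55-fold lower, and ZFP36, an mRNA-decay factor, 2.62-fold and 3.03-fold. Not all of the list followed. ATF3, a stress-induced factor, was at log2 ratios of -0.48 and 0.06, and HSPA6 was higher in Yorkshire, at 1.545. The part of dissociation in these values was not tested.

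The lowest genes of all in both libraries were a mixed set. CHODL, a membrane lectin of satellite cells, was at 19.5 CPM against 288 in GDSS and 18.6 against 174 in Yorkshire, 14.8-fold (4.08 to 123) and 9.37-fold (5.09 to 19.6) lower. GPC3, a heparan sulfate proteoglycan, was 17.4-fold (6.78 to 64.0) and 8.34-fold (6.39 to 11.1) lower. RCAN1, an inhibitor of calcineurin, was 7.61-fold (3.85 to 17.7) and 8.41-fold (6.62 to 10.9) lower. SPARCL1, a matricellular protein, was at 165 against 1855 CPM and 479 against 3574, 11.2-fold (7.0 to 19.3) and 7.47-fold (6.61 to 8.47) lower. EMP1, TM4SF1, CXCL2, RHCG, PCDH7, ADM, GXYLT2 and HMCN2 completed the set. Among them EMP1, an epithelial membrane protein, was 9.45-fold (6.34 to 14.8) and 6.38-fold (5.85 to 6.98) lower and the chemokine CXCL2 7.76-fold and 8.50-fold.

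**Figure D4:**
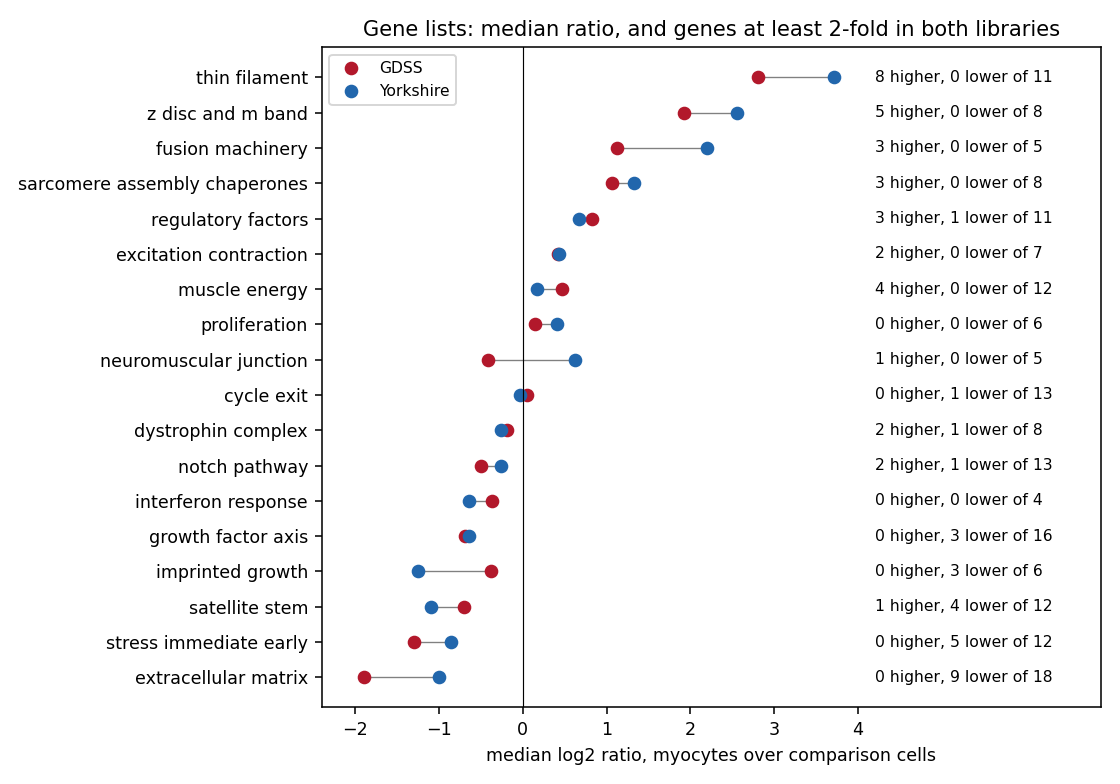
Median log2 ratio of members over comparison cells for each gene list with at least 4 measured genes, as a point per library, with the number of genes at least 2-fold higher and lower in both libraries at the right. The thin filament list is farthest to the right, at 2.81 and 3.71, and the extracellular matrix list at -1.89 and -1.0 is far to the left.

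Markers of endothelial cells, macrophages and tendon were low in members. Of these and the mural markers, only the endothelial ones summed to less than in comparison cells in both libraries. Endothelial markers summed to 156 CPM in GDSS and 236 in Yorkshire members, against 3215 and 5614 in endothelial barcodes. In comparison cells they summed to 538.9 and 339.2. Macrophage markers summed to 58.4 and 14.9 CPM in members, against 42.83 and 70.28 in comparison cells. Tendon markers summed to 0 in GDSS and 26.0 in Yorkshire members, against 21.14 and 17.95 in comparison cells. The 7 mural markers summed to 554 CPM in GDSS members and 837 in Yorkshire members, against 1020 and 495 in comparison cells. At least 3 UMIs of mural markers were found in 4 GDSS and 36 Yorkshire members. Of 8 defining markers of endothelial, mural, glial and myeloid cells together, 3 GDSS and 12 Yorkshire members had at least 3 UMIs. The GDSS member with the most UMIs had 6 MYMK UMIs and no ACTC1 UMI.

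For the comparison of breeds within members, 1645 genes had at least 50 UMIs over both sums. At least 2-fold, 26 of these (1.58%) were higher in GDSS members and 221 (13.4%) in Yorkshire members. The counting interval excluded a ratio of 1 for all 26 and for 152 of the 221. GDSS members held 102826 UMIs against 538862 in Yorkshire, so a gene could pass the minimum through Yorkshire alone. Over comparison cells, where 10083 genes were measured, 3.96% and 6.15% were. Comparison cells held 1844650 and 18270100 UMIs, so the shares in members and comparison cells are at unlike depth. As GDSS over Yorkshire, the median log2 ratio was -0.17 in members and -0.03 in comparison cells. The markers of the type were close: ACTC1 was 1.17-fold higher in GDSS (1.07 to 1.28), and ACTN2 and KLHL41 exceeded GDSS in Yorkshire, 1.38-fold (1.08 to 1.79) and 1.33-fold (1.11 to 1.61). All 3 were thus within 1.5-fold between the libraries.

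AKR1B1, an aldose reductase, was at 973 CPM in GDSS members and 316 in Yorkshire ones, 3.08-fold higher (2.38 to 3.97), with a log2 ratio of 1.62 against 0.31 in comparison cells. ID1, an inhibitor of myogenic factors, was at 1031 and 369 CPM, 2.79-fold higher in GDSS (2.18 to 3.55). CLK1, a splicing kinase, was at 350 and 123 CPM, 2.86-fold higher (1.85 to 4.35). MGP, the matrix Gla protein abundant in stromal cells, was 2.71-fold higher (2.28 to 3.21), and its log2 ratio in comparison cells was as large, at 1.57. EIF3L and RABAC1 were 2.12-fold and 2.10-fold higher. TNNI2 was 2.14-fold higher (1.81 to 2.53) but at a log2 ratio of -0.26 without the members rich in fast fibre genes. Of the FABP5 UMIs in GDSS members 96.6% came from 1 cell, so its 2.60-fold ratio rests on that cell.

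Higher in Yorkshire was ANKRD1, the stress-responsive titin-associated ankyrin repeat protein, at 737 CPM against 87.5 in GDSS, 8.42-fold (4.39 to 18.5). It had a UMI in 34 of 85 Yorkshire and 5 of 22 GDSS members, and in comparison cells it was higher in GDSS, by 0.45 on the log2 scale. HSPA6, an inducible heat shock protein, was at 685 and 97.3 CPM, 7.04-fold higher in Yorkshire (3.79 to 14.8), again with the opposite sign in comparison cells (0.54). RBBP6, a ubiquitin ligase that binds RB, was at 343 and 38.9 CPM, 8.83-fold higher (3.39 to 32.7), and in comparison cells its log2 ratio had the same sign, at -1.36. ZFP91 and the cohesin subunit SMC3 were 5.15-fold (2.15 to 16.1) and 4.12-fold (1.71 to 13.0) higher. Of the UMIs of IGFBP6, ENO3 and MYH8 in Yorkshire members 64.3%, 72.0% and all came from a single cell. For these 3 genes the ratio thus describes a cell and not the group.

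The interferon-induced gene ISG15 was 5.85-fold higher in Yorkshire members (1.94 to 28.9), with 55.4% of its Yorkshire UMIs in 1 cell. Between breeds 12 thin filament genes had a median of -0.09, with TNNI2 higher in GDSS and TNNT1, TNNC2, TPM2 and TPM3 higher in Yorkshire. For TNNC2 all 16 GDSS UMIs and 192 of 201 Yorkshire UMIs lay in the 5 and 8 members rich in fast fibre genes. TNNC2 is one of the genes that picked those members.

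**Figure D5:**
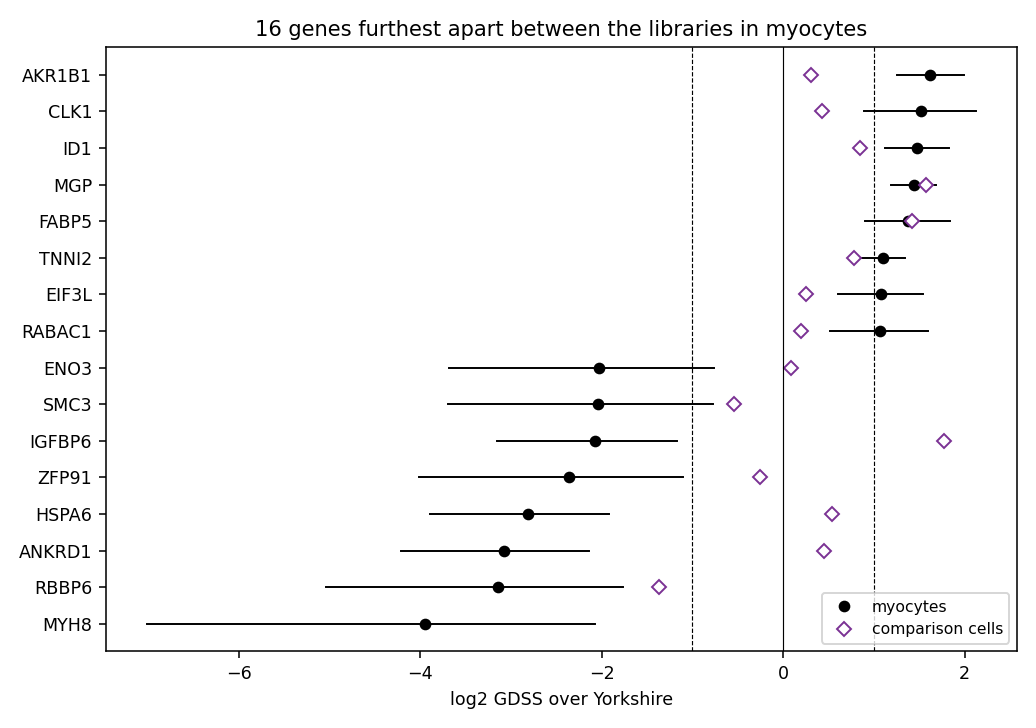
Log2 ratio of GDSS over Yorkshire for 16 genes, in members (dots, with 95% counting intervals) and in comparison cells (open diamonds). ANKRD1 and HSPA6 lie far to the left in members, at -3.07 and -2.82, and to the right of 0 in comparison cells, while MGP and FABP5 lie to the right in both.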

How the data were processed

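Cells of the longissimus dorsi of 2 breeds were profiled, 1 library per breed, and samples were grouped by their titles. The deposited matrices hold raw UMI counts per gene and barcode, and the submitters' processing notes name Cell Ranger as the authors' tool (software version 3.1.0 per the file headers) and R 3.5.2. No coordinates or sequences are printed, since the genome build was not given in the sources used here. Of 21301 features 14846 carried a symbol in the files, and 680 more took one from a table of pig identifiers.

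The members, gene lists and settings were chosen with earlier results of these data known. Raw UMIs were summed over the cells of a group in each library and scaled to the group's total as CPM. With 1 library per breed there is no test. A gene was called at a 2-fold ratio, in both libraries where members were set against comparison cells, with at least 20 UMIs over both sums in each library. For GDSS over Yorkshire at least 50 UMIs over both sums were needed. Ratios carry exact conditional binomial intervals, levels exact Poisson and shares Clopper-Pearson intervals, all at 95%. Where a group had no UMI, 3 counts were put in its place, and the ratio is then a bound. UMIs of a cell are not independent samples of an animal, so intervals cover counting error only. For shares of cells with a UMI, each cell was thinned to 1500 UMIs, and 2 members of each library were too shallow. Endothelial barcodes had at least 3 UMIs of PECAM1 and CDH5 together, and no MYMK, MYOG, PAX7, MYF5 or TAGLN3 UMI. They also met the same limits on genes detected and on DCN and LUM as members.

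The genes named are the markers, the genes of the rule, up to 4 members of each list, and the 12 highest and 12 lowest by the smaller of the ratios in the 2 libraries, with at least 50 UMIs. Between breeds they are the 8 highest and 8 lowest with at least 100 UMIs. Ribosomal, mitochondrial, haemoglobin, SLA and sex-linked genes stayed out of the rankings, a few genes are not reported here, and other genes with values were chosen after those were seen. Scrublet in scanpy marked 1 barcode per library by its automatic threshold and was taken to have failed, so no doublets were removed. Members with a score of at least 0.3 numbered 0 in GDSS and 1 in Yorkshire. The ratio and interval steps were tested on simulated data, drawn as Poisson sums with no spread between cells. That test therefore does not cover genes whose UMIs lie in few cells. Alternatives changed the rule, the scaling, the minimum, depth, the comparison cells and the members kept. Those without members rich in fast fibre genes, without the deepest member, with a minimum in comparison cells alone and with intervals that exclude 1 were added after seeing the data. The tools were Python 3.11.15, numpy 2.4.6, scipy 1.17.1, pandas 2.3.3, scanpy 1.11.5, anndata 0.12.19, matplotlib 3.10.9, and R 4.3.3 with edgeR 4.0.16 for TMM factors only.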

Additional observations from a re-analysis of the deposited data

Results flagged for a closer look

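In 3 of the genes described, members were at least 2-fold higher than comparison cells in one library and at least 2-fold lower in the other. With 1 library per breed, none of these differences between libraries was tested. ANKRD1 was at a log2 ratio of -1.915 in GDSS and 1.612 in Yorkshire. HSPA6 followed the same pattern, at -1.812 and 1.545. IGFBP6 was at -1.079 and 2.775, and 64.3% of its UMIs in Yorkshire members came from 1 cell. Over all 6100 measured genes, 45 were at least 2-fold apart in opposite directions.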

How the results depend on the processing

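No paired analysis was possible because each breed had 1 library, and for the same reason no library could be left out in turn. Counts are given here out of the genes measured under each setting. The 336 of 6100 genes higher in members were 595 of 7346 with a minimum of 5 UMIs and 89 of 2228 with 100. Against MYOD1 barcodes they were 131 of 1988. The 373 of 6100 lower genes were 145 of 3021 after thinning and 228 of 2228 with a minimum of 100 UMIs. They were 163 of 1988 against MYOD1 barcodes and 190 of 6100 with intervals that exclude 1. The 26 of 1645 genes higher in GDSS were 16 of 1645 with TMM factors and 9 of 354 after thinning. They were 57 of 1642 with the mean of per-cell CPM, 140 of 3712 with a minimum of 20 UMIs and 6 of 354 with 200. The 221 of 1645 higher in Yorkshire were 31 of 354 after thinning. They were 687 of 3712 with a minimum of 20 UMIs and 21 of 354 with 200. The rule applied after thinning gave a share of 0.320% in Yorkshire. Fewer or more genes pass each minimum by construction, and fewer cells and UMIs remain after thinning. The cause of the other differences was not tested. The other 62 values of these counts and shares stayed within 1.5 times or within the counting interval.

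The log2 ratio changed sign in these cases. Between breeds, ENO3 was at 0.016 and FABP5 at -3.36 with at least 3 regulator UMIs, FABP5 at -3.46 with at least 4, ATP2A2 at 0.18 after thinning, and TNNI2 at -0.26 without members rich in fast fibre genes. In GDSS members over comparison cells, UTRN was at 0.39 after thinning. MGP was at -1.08 in GDSS and -0.65 in Yorkshire against comparison cells without the other limits, and DLL4 at -0.0397 in GDSS against MYOD1 barcodes. Without members rich in fast fibre genes, GDSS values were -0.17 for DES, -0.85 for MEF2C, -1.64 for MYL1, -0.12 for MYLPF, -0.14 for MYOZ1 and -0.029 for SLN. Among all values of single genes and lists under the alternatives, 4183 stayed within the counting interval, 15 changed sign, and the other 1091 kept their sign or were under 2-fold, which includes every median of a list, since those have no interval.

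Precision was limited by 22 members and 102826 UMIs in GDSS. The libraries give no spread between animals.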

Other observations

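Further genes, chosen after their values were seen, were higher in members of both libraries. APOBEC2, a muscle-restricted member of the cytidine deaminase family, was at 282 CPM against 7.59 in GDSS comparison cells, 37.2-fold higher (19 to 76.1). In Yorkshire it was 15.3-fold higher (12.7 to 18.4). ALDH1A1, a retinaldehyde dehydrogenase, was at 156 against 9.76 CPM and 171 against 9.36, 16-fold (7.61 to 33.1) and 18.2-fold (14.0 to 23.6) higher. In GDSS comparison cells APOBEC2 and ALDH1A1 were under 20 UMIs, so both passed the minimum only with members. SERPINF1, a secreted anti-angiogenic serpin, was at 661 against 48.3 CPM and 427 against 16.3, 13.7-fold (9.85 to 19) and 26.3-fold (22.0 to 31.3) higher. GPD1, which links glycolysis to glycerol, was 14.7-fold and 13.6-fold higher, and CPT1B, the muscle carnitine palmitoyltransferase, 7.18-fold (3.08 to 15.5) and 8.55-fold (6.24 to 11.5). GAPDH, often taken as a reference gene, was at 4133 CPM against 877 and 3053 against 778, 4.72-fold and 3.92-fold higher. The calcineurin regulators went opposite ways, RCAN2 10.8-fold (6.77 to 16.9) and 6.63-fold (5.52 to 7.92) higher and RCAN1 7.61-fold and 8.41-fold lower.

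Other genes, chosen in the same way, were lower in members. VIM, the intermediate filament of undifferentiated cells, was at 652 CPM against 2965 in GDSS and 663 against 3261 in Yorkshire, 4.55-fold (3.58 to 5.88) and 4.92-fold (4.44 to 5.48) lower. TIMP1, an inhibitor of matrix proteases, was 4.17-fold and 11.4-fold lower. H2AFZ, a histone variant, was at 350 against 1084 CPM and 434 against 1766, 3.1-fold and 4.07-fold lower. MSC, a repressor of myogenic factors, was 10.3-fold and 3.17-fold lower. SPP1, osteopontin, had no UMI in GDSS members, at least 3.83-fold lower, and was at 1.86 CPM against 67.4 in Yorkshire.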
